A study of Homo sapiens with 6 samples.

Results

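The keratin genes of this data set are the 55 protein-coding genes, of 58735 genes listed, whose names consist of KRT and a number, with a letter A, B or C where there is one; genes of keratin-associated proteins were not counted among them. The data are RNA sequencing of cells labelled as BxPC-3, the name of a long-established line from a human pancreatic adenocarcinoma, kept in RPMI-1640 medium with fetal bovine serum; 6 libraries were analysed. Some marker genes go against this label. In 3 libraries the cells had received GSK3326595, a small-molecule inhibitor of the arginine methyltransferase PRMT5, and in 3 libraries, titled DMSO, they were its controls. The study's design text speaks of a PRMT5 knockdown, whereas the labels of every library name the inhibitor, and the labels were followed. Neither dose nor duration is given in the sources used. Nothing states that the replicates were separate cultures, and the p-values therefore reflect the spread among these libraries alone, which may be technical.

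Keratins are the intermediate filament proteins of epithelial cells. Each filament is built from pairs of an acidic type I keratin and a basic or neutral type II keratin, so a cell that makes filaments needs members of both types. Simple epithelia, such as that of the pancreatic ducts, are known for KRT8 with KRT18, often joined by KRT7 and KRT19. Stratified epithelia use KRT5 with KRT14 in their basal layer and other pairs above it, and the hair shaft has a set of its own, the hair keratins.

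Values are FPKM, fragments per kilobase of listed gene length after scaling between libraries. The libraries held 15724750, 14087260 and 15707218 reads with the inhibitor and 15302555, 14201282 and 14858308 reads in DMSO. Inhibitor replicate 2 stood apart. Across the 13578 genes tested its log2 values correlated with those of the other inhibitor libraries at r = 0.906 and 0.904, whereas those 2 correlated with each other at r = 0.980 and the DMSO libraries among themselves at r = 0.980 to 0.983; these correlations are across genes, which are not independent replicates. Mitochondrial transcripts took 11.3% of its reads, against 4.70% to 6.03% in the other 5 libraries, and genes under 1500 bases took 1.09% of its nuclear protein-coding reads, against 2.27% to 2.61%. Their part in the keratin values of this library was not tested, and results that rest on this library are given with and without it.

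Of the 55 keratin genes, 13 were expressed, meaning that 3 or more of the 6 libraries reached 1 FPKM. A further 17 had between 1 and 132 reads over all libraries but stayed below this limit, and 25 had 0 reads throughout. Among type I keratins, 6 of the 18 epithelial members were expressed (KRT10, KRT12, KRT15, KRT16, KRT17 and KRT18) and 2 of the 11 hair keratins (KRT34 and KRT39). Among type II keratins, 3 of the 20 epithelial members were expressed (KRT7, KRT8 and KRT80) and 2 of the 6 hair keratins (KRT81 and KRT86). Of the 13, 8 reached the limit in all 6 libraries. KRT12 reached it through the inhibitor libraries alone and KRT34 and KRT15 through the DMSO libraries alone, so those 3 could pass only by being high in 1 group, and counts over the expressed members are not independent of the comparison.

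Several keratins that define epithelial classes were at 0 reads in every library. They include KRT19 of ducts and simple epithelia, the basal keratin KRT5, the wound and hyperproliferation keratins KRT6A, KRT6B and KRT6C, and the epidermal keratins KRT1 and KRT2. A count of 0 allows up to 3 reads over the 6 libraries, which corresponds to 0.00770 to 0.0257 FPKM for the 25 genes, a limit that covers counting error only. KRT14, the basal partner of KRT5, had 1 read in inhibitor replicate 1 and 1 read in DMSO replicate 3. KRT4, KRT73, KRT76, KRT78 and KRT25 had 1 read each in all. Among the other members below the limit, KRT9, a keratin of palm and sole skin, had 17 reads with the inhibitor and 9 in DMSO, KRT13, of mucosal epithelia, 10 with the inhibitor and 9 in DMSO, and the hair keratins KRT32, KRT36, KRT37 and KRT38 between 2 and 9 reads in all. Tested without a filter, limma called none of the 17, the lowest adjusted p being 0.109 for KRT20 (limma). The 9 markers of ducts and simple epithelium summed to 789.9 to 1042 FPKM with the inhibitor and 675 to 755 FPKM in DMSO, most of it KRT8, KRT18 and KRT7. Among those that are no keratins, the mucin MUC1 stood at 47.1 to 49.5 FPKM with the inhibitor and 20.2 to 23.7 FPKM in DMSO, while CDH1, the adhesion molecule E-cadherin, stayed at or below 0.496 FPKM, EPCAM at or below 0.341 FPKM, and CEACAM6 had 0 reads. SOX9, also among the 9 markers, stood at 2.09 to 2.37 FPKM with the inhibitor and 2.93 to 4.17 FPKM in DMSO. The cells thus had KRT8, KRT18, KRT7, MUC1 and, at a low level, SOX9 transcripts. They had no read of KRT19 or CEACAM6, both among the 9 markers listed, and little CDH1 or EPCAM. These values leave the cell line label in doubt, and the identity of the cells was not tested. Other cell types were checked by their markers. The leukocyte markers summed to 0 to 0.0974 FPKM with the inhibitor and 0.0292 to 0.309 FPKM in DMSO, with CD3E and LYZ at 0 reads. The fibroblast markers summed to 5.49 to 10.4 FPKM with the inhibitor and 4.23 to 4.49 FPKM in DMSO, nearly all of it COL1A1, with COL1A2, LUM and PDGFRA at 0 reads. The 4 markers of basal stratified epithelium summed to 0.312 to 0.630 FPKM with the inhibitor and 1.15 to 1.45 FPKM in DMSO, most of it KRT15, the 5 suprabasal markers to 4.46 to 32.4 FPKM with the inhibitor and 40.1 to 42.9 FPKM in DMSO, most of it KRT10, and the 5 hair markers to 21.3 to 27.9 FPKM with the inhibitor and 29.5 to 30.8 FPKM in DMSO, most of it HOXC13. The endothelial markers summed to 0.227 to 0.823 FPKM with the inhibitor and 1.09 to 1.46 FPKM in DMSO, most of it CDH5. Their part in the keratin values was not tested.

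Keratin RNA was almost wholly that of 4 genes. KRT8, KRT18, KRT17 and KRT7 together made up 92.0%, 95.4% and 92.4% of the summed keratin FPKM in the inhibitor libraries and 89.5%, 89.2% and 89.3% in the DMSO libraries. The whole family summed to 1066 ± 71.9 FPKM with the inhibitor and 1025 ± 70.0 FPKM in DMSO (SD, n = 3 each), and the libraries of the groups overlapped. In bulk RNA, fewer cells with a keratin and less of its RNA per cell cannot be told apart. By mean FPKM in the inhibitor libraries KRT18 ranked 55 and KRT8 ranked 57 among all genes, and in the DMSO libraries KRT18 ranked 108 and KRT8 ranked 101. KRT17 ranked 149 with the inhibitor and 122 in DMSO, and KRT7 ranked 288 with the inhibitor and 195 in DMSO. The order among these genes depends on the length used. The listed length is the union of all annotated exons, which for KRT8 is 6881 bases, 3.24 times its principal GENCODE 29 transcript of 2126 bases. For KRT18 the listed length is 3218 bases, 2.06 times the principal transcript, and for KRT7 the factor is 2.33 and for KRT17 it is 2.06. Per listed length KRT8 and KRT18 differed by less than the spread between libraries in each group. Per length of the principal transcript KRT8 stood at 1169 ± 219 FPKM with the inhibitor and 856 ± 52.0 FPKM in DMSO, and KRT18 at 750.1 ± 155 FPKM with the inhibitor and 525 ± 23.6 FPKM in DMSO (SD, n = 3 each). A ratio of a gene's levels between groups does not depend on the length, but the limit of expression and the fold changes on the log2(FPKM + 1) scale do. Per length of its principal transcript KRT12, for example, stood at 5.00 ± 0.939 FPKM with the inhibitor and 1.42 ± 0.05 FPKM in DMSO (SD, n = 3 each), both above the limit.

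**Figure D1:**
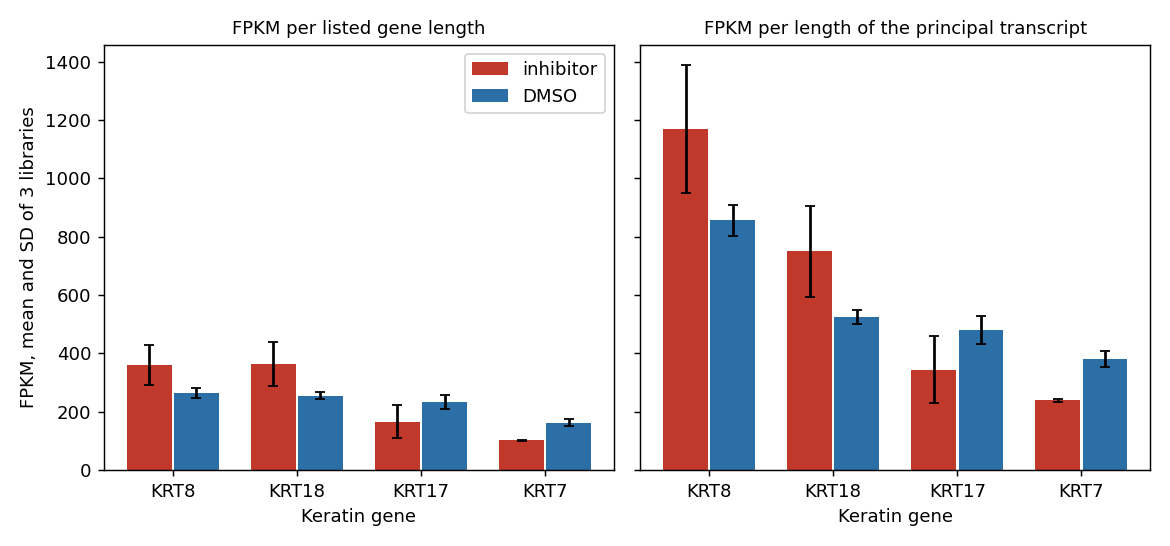
Mean FPKM of the 4 most abundant keratin genes, per listed gene length (left) and per length of the principal transcript (right), in inhibitor (red) and DMSO (blue) libraries; error bars are the SD of 3 libraries. KRT8 and KRT18 stand level on the left, and KRT8 stands highest on the right.

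KRT8 and KRT18, the pair of simple epithelia, had higher values in every inhibitor library than in any DMSO library, but neither passed the test. KRT8 (ENSG00000170421, chromosome 12, 52897187 to 52949954, hg38) stood at 317, 439 and 327 FPKM with the inhibitor and at 258, 253 and 283 FPKM in DMSO. KRT18 (ENSG00000111057, chromosome 12, 52948871 to 52952901) stood at 319.6, 451 and 322 FPKM with the inhibitor and at 254, 244 and 267 FPKM in DMSO. Inhibitor replicate 2 was the highest library for both. On the log2(FPKM + 1) scale, which is used for all fold changes here and shrinks the changes of weakly expressed genes, the fold change was 0.43 for KRT8 (SE 0.17, limma adjusted p = 0.12) and 0.49 for KRT18 (SE 0.17, limma adjusted p = 0.0964). Without inhibitor replicate 2 both were smaller and both were called, at 0.29 for KRT8 (SE 0.07, limma adjusted p = 0.0184) and 0.33 for KRT18 (SE 0.06, limma adjusted p = 0.00731). The ratio of KRT8 to KRT18 FPKM was 0.993, 0.974 and 1.02 with the inhibitor and 1.01, 1.04 and 1.06 in DMSO, so these partners kept a ratio close to 1 in all 6 libraries, on the listed lengths. The pair lies head to head on opposite strands and shares 525 exon bases, 7.63% of those of KRT8 and 16.3% of those of KRT18. No source used here says if the counting took strand into account, so reads of the shared bases could be assigned to either gene.

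KRT7, the type II keratin of ducts and glands, fell. KRT7 (ENSG00000135480, chromosome 12, 52232520 to 52252186) stood at 101, 102 and 105 FPKM with the inhibitor and at 159, 154 and 177 FPKM in DMSO. The inhibitor libraries lay close together, replicate 2 included, and all were below the DMSO libraries. The log2 fold change was −0.66 (SE 0.12, limma adjusted p = 0.0151) and −0.65 without inhibitor replicate 2. With each library left out in turn, 2 of 6 fits kept the call, and the limma adjusted p reached 0.0843 without DMSO replicate 1, 0.0722 without DMSO replicate 3, 0.0721 without DMSO replicate 2 and 0.0568 without inhibitor replicate 1. The antisense gene KRT7-AS shares 282 exon bases with KRT7, 6.89% of those of KRT7. As KRT7 was lower and KRT8 higher with the inhibitor, the ratio of KRT7 to KRT8 FPKM was 0.320, 0.232 and 0.322 in the inhibitor libraries and 0.615, 0.609 and 0.627 in the DMSO libraries.

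KRT17, a type I keratin of basal and wounded epithelium, also had lower values in every inhibitor library, and replicate 2 was the lowest by far. KRT17 (ENSG00000128422, chromosome 17, 41619441 to 41624842) stood at 195, 103 and 202 FPKM with the inhibitor and at 230.4, 211 and 258 FPKM in DMSO. It was not called (log2 fold change −0.54, SE 0.28, limma adjusted p = 0.216), nor without inhibitor replicate 2 (−0.23, limma adjusted p = 0.0934). Its close relative KRT16, which is known for induction in wounded and hyperproliferative skin, stood at 4.54, 2.75 and 3.72 FPKM with the inhibitor and 5.84, 4.88 and 5.89 FPKM in DMSO and was not called (−0.50, SE 0.17, limma adjusted p = 0.0899). The ratio of KRT16 to KRT17 FPKM was 0.0184 to 0.0267 with the inhibitor and 0.0228 to 0.0253 in DMSO. The principal transcripts of KRT16 and KRT17 share 82.0% of 1201 aligned bases, and those of KRT16 and KRT14 share 88.7% of 1464.

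**Figure D2:**
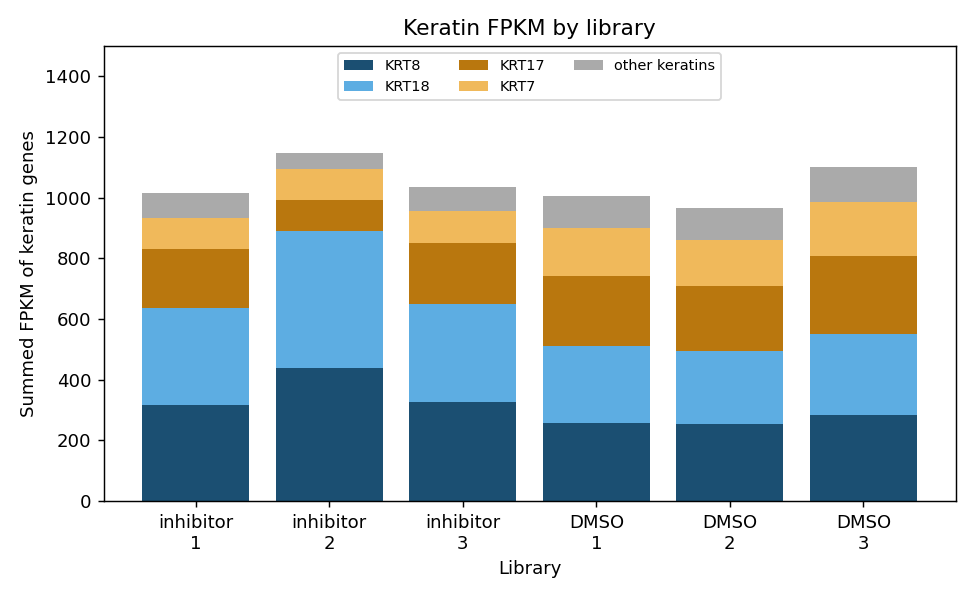
Summed FPKM of all keratin genes in each library, split into KRT8, KRT18, KRT17, KRT7 and the other keratins. The bars reach 1015 to 1148 FPKM with the inhibitor and 966 to 1103 FPKM in DMSO, with larger KRT8 and KRT18 parts and a smaller KRT7 part in the inhibitor libraries.

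Across the 4 genes the make-up of keratin RNA differed between the groups. KRT8 gave 31.3%, 38.3% and 31.6% of keratin FPKM with the inhibitor and 25.6%, 26.2% and 25.6% in DMSO. KRT18 gave 31.5%, 39.3% and 31.1% with the inhibitor and 25.3%, 25.2% and 24.2% in DMSO. KRT7 gave 9.99%, 8.89% and 10.2% with the inhibitor and 15.7%, 15.9% and 16.1% in DMSO. KRT17 gave 19.2%, 8.94% and 19.5% with the inhibitor and 22.9%, 21.9% and 23.4% in DMSO. Each of these shares lay apart between the groups. The ratio of type I to type II keratin FPKM did not: it was 1.14 ± 0.128 with the inhibitor and 1.18 ± 0.0245 in DMSO (SD, n = 3 each). These shares and ratios are descriptions and were not tested. They, and every ratio between keratins given here, rest on the listed lengths. The listed length exceeds the principal transcript by a factor of 3.24 for KRT8 and 2.33 for KRT7, both type II. For KRT18 and KRT17, both type I, the factor is 2.06. Per length of the principal transcript the share of KRT8 would thus be larger and the ratio of type I to type II lower.

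Of the 13 expressed keratins, 3 were called lower (KRT34, KRT15 and KRT7) and 1 higher (KRT12) at a limma adjusted p under 0.05, whereas 9 were not called. Among those called, KRT34, KRT15 and KRT12 passed the limit through 1 group alone, so these counts are not independent of the comparison. Over all 13578 genes tested, 10.0% were called lower and 7.18% higher. The median log2 fold change of the 13 was −0.50, beside −0.05 over all genes tested. Without inhibitor replicate 2 the middle value of the 13 was −0.26, that of KRT86, again beside −0.05 over all genes. The 3 libraries of each group did not overlap for any of the 13 keratins, 9 with lower and 4 with higher values with the inhibitor, whereas the groups did not overlap for 45.9% of all genes tested, 26.7% lower and 19.2% higher. At least 3 of the 13 had to be so, having passed the limit through 1 group alone. Without inhibitor replicate 2, 4 keratins were called lower (KRT10 added) and 3 higher (KRT8 and KRT18 added), where 40.6% of all genes were called, 23.1% lower and 17.5% higher.

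**Figure D3:**
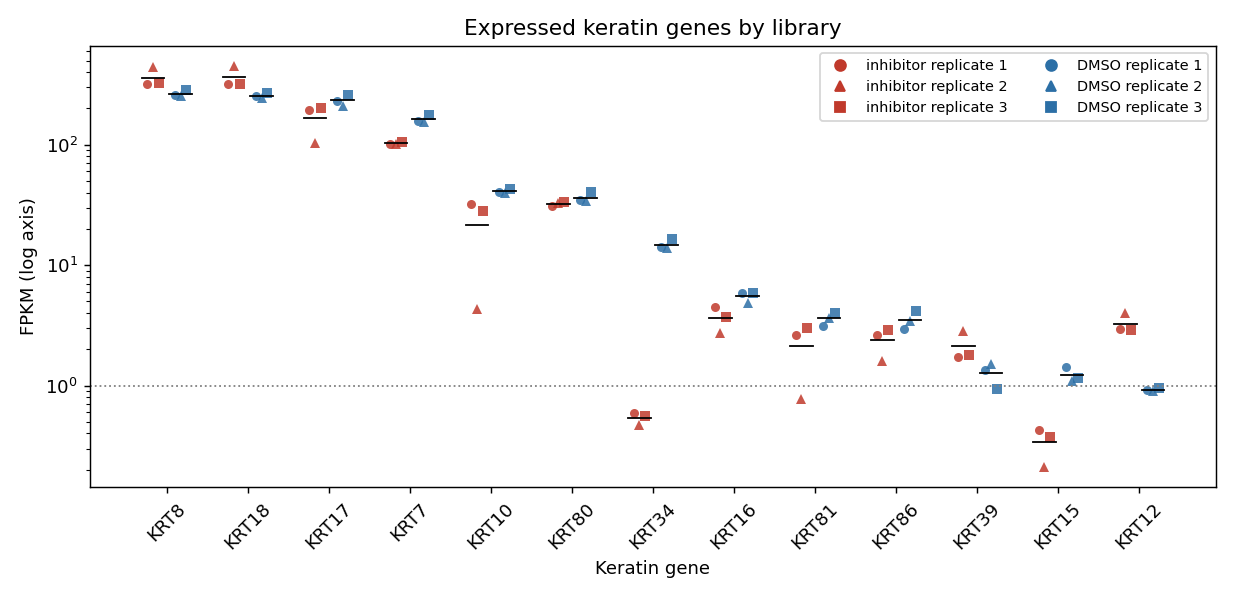
FPKM of the 13 expressed keratin genes in each library, on a log axis, with inhibitor libraries in red left of DMSO libraries in blue; symbols mark the replicate, black lines the group means and the dotted line 1 FPKM. The red and blue points of each gene do not overlap, and inhibitor replicate 2 (triangles) lies far below its group for KRT10, KRT81 and KRT17.

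KRT34, a type I hair keratin of the hair cortex, showed the largest fall of the 13 expressed keratins. KRT34 (ENSG00000131737, chromosome 17, 41377650 to 41382403) stood at 0.592, 0.469 and 0.560 FPKM with the inhibitor and at 14.3, 13.8 and 16.4 FPKM in DMSO. These values rest on 17, 11 and 16 reads with the inhibitor and 391, 353 and 425 reads in DMSO. The inhibitor mean was 0.0365 times the DMSO mean, and among the keratins it held place 14 by mean level with the inhibitor and place 7 in DMSO. The log2 fold change was −3.36 (SE 0.11, limma adjusted p = 0.000525) and −4.72 with limma-voom on the reads themselves (SE 0.28). Each of the 6 fits without 1 library kept the call (highest limma adjusted p = 0.0136). The principal transcript of KRT34 shares 93.0% of 1163 aligned bases with that of KRT33A, 92.5% of 1180 with KRT33B and 91.8% of 1163 with KRT31, its neighbours on the chromosome, so how reads were divided among them depends on the counting. KRT33A and KRT31 had 0 reads in all libraries, and KRT33B had 0 reads with the inhibitor and 4 in DMSO.

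KRT12, the type I keratin of the corneal epithelium, rose. KRT12 (ENSG00000187242, chromosome 17, 40860943 to 40867224) stood at 2.95, 3.97 and 2.88 FPKM with the inhibitor and at 0.911, 0.902 and 0.962 FPKM in DMSO, on 427 reads in all with the inhibitor and 120 in DMSO. The DMSO libraries were nearly equal and all below every inhibitor library. The log2 fold change was 1.14 (SE 0.14, limma adjusted p = 0.00567), 1.02 without inhibitor replicate 2 and 1.78 with limma-voom on the reads, and each of the 6 fits without 1 library kept the call (highest limma adjusted p = 0.0396). Its type II partner in the cornea, KRT3, had 0 reads. A gene on the opposite strand, AC004231.3, shares 160 exon bases with KRT12, which is 5.56% of the exon bases of KRT12.

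The keratins that follow KRT12 along chromosome 17, as far as KRT40, also had higher mean values with the inhibitor, a pattern seen after the values were known. Several lie near the limit of expression, which rests on the library ranked 3 of 6: just inside it were KRT15 at 1.09 FPKM and KRT39 at 1.73 FPKM in that library, and just outside it KRT20 at 0.764, KRT23 at 0.396 and KRT40 at 0.201 FPKM. KRT20, an intestinal keratin, stood at 1.09, 2.23 and 0.764 FPKM with the inhibitor and 0.242, 0.259 and 0.256 FPKM in DMSO. All 3 inhibitor libraries were above the DMSO libraries, and it was tested only when no filter was set, where its log2 fold change was 0.87 (SE 0.24, limma adjusted p = 0.109). The inhibitor mean of KRT20 was 5.39 times the DMSO mean, and 3.67 times without inhibitor replicate 2. KRT39, a hair keratin, stood at 1.73, 2.86 and 1.81 FPKM with the inhibitor and 1.35, 1.52 and 0.942 FPKM in DMSO and was not called (0.45, SE 0.19, limma adjusted p = 0.142; 0.29 without inhibitor replicate 2 and 0.71 with limma-voom on the reads, not called in either). KRT23 stood at 0.252, 1.08 and 0.718 FPKM with the inhibitor and 0.375, 0.235 and 0.396 FPKM in DMSO, and its groups overlapped; its inhibitor mean was 2.04 times the DMSO mean, and 1.45 times without inhibitor replicate 2. KRT40, a hair keratin, stood at 0.439, 0.201 and 0.248 FPKM with the inhibitor and 0, 0.0307 and 0.121 FPKM in DMSO, on 31 and 5 reads. These 5 genes, KRT12, KRT20, KRT23, KRT39 and KRT40, follow each other among the keratins of chromosome 17, and the mean of each was higher with the inhibitor, though only KRT12 was called. The expressed keratins nearest to them on either side are KRT10 and KRT34, whose means were lower. Below the limit, KRT83, KRT9 and KRT13, which also had 10 or more reads, had higher means with the inhibitor too, with overlapping groups. Their log2 differences were 0.25, 0.08 and 0.01. They lie outside this stretch, KRT83 next to KRT81 on chromosome 12 and KRT13 and KRT9 near KRT15. Higher means below the limit were thus not particular to these neighbours.

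**Figure D4:**
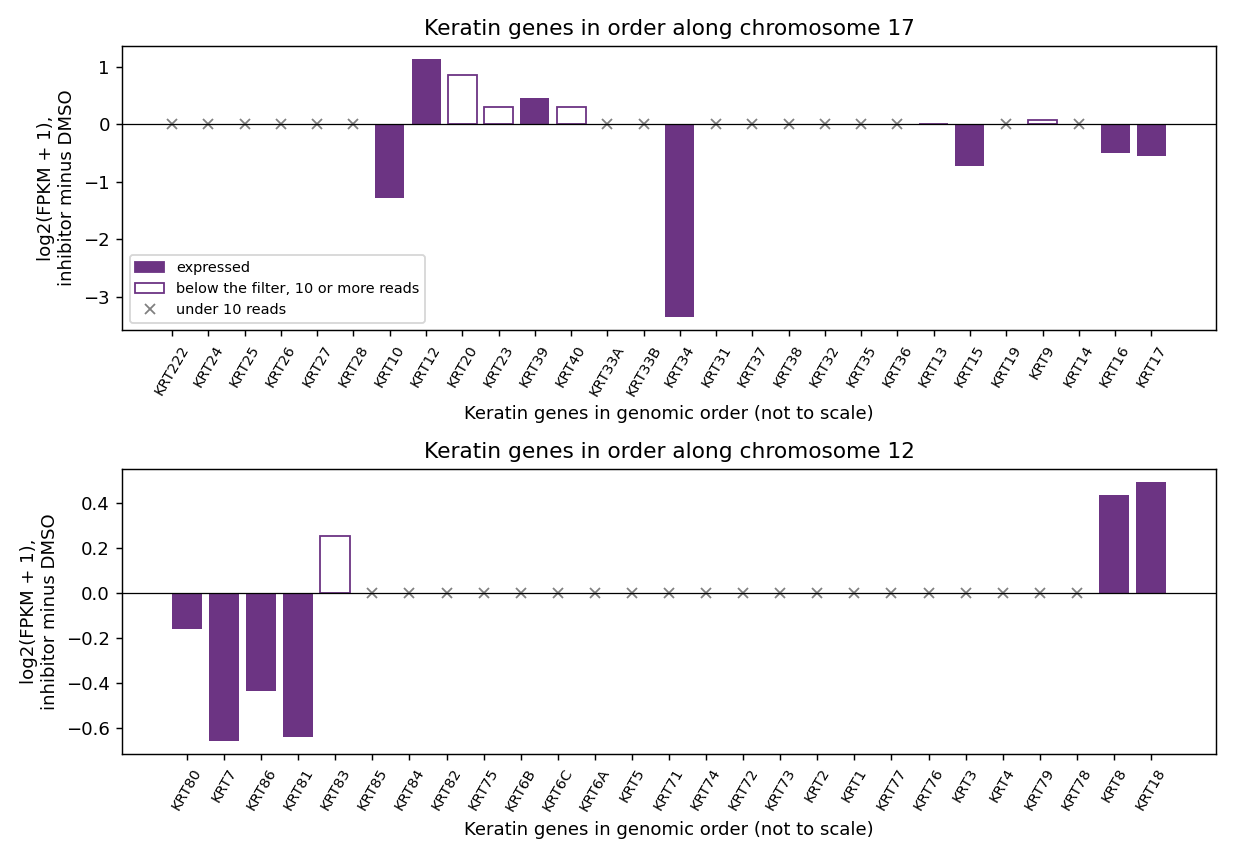
Difference of mean log2(FPKM + 1), inhibitor minus DMSO, for keratin genes in their order along chromosomes 17 (top) and 12 (bottom), not to scale; filled bars are expressed genes, open bars genes below the limit with 10 or more reads, and crosses genes with fewer. On chromosome 17 the bars from KRT12 to KRT40 point up and those of KRT10, KRT34, KRT15, KRT16 and KRT17 point down, while on chromosome 12 KRT8 and KRT18 point up and KRT80, KRT7, KRT86 and KRT81 point down (KRT80 is at 0.02 with quantile normalization). The open bars of KRT13 and KRT9 on chromosome 17 and of KRT83 on chromosome 12 also point up.

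The promoters of KRT34 and KRT12, the most strongly lowered and raised of the 13 expressed keratins, are shown with those of KRT20 and KRT39. Among them only KRT34 had lower values with the inhibitor, and other keratins lie between it and KRT39 on chromosome 17. The sequences are the 250 bases before the RefSeq gene start on the minus strand of GRCh38.p14 (the listed gene model of KRT34 begins further upstream, within its window), read 5′ to 3′, and capitals mark the TATA motif TATAAA where it occurs.
KRT34, chr17:41382307-41382556: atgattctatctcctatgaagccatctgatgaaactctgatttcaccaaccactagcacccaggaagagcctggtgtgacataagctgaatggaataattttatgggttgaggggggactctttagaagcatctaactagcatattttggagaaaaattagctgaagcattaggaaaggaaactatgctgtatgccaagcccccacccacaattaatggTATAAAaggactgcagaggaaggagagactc
KRT12, chr17:40867224-40867473: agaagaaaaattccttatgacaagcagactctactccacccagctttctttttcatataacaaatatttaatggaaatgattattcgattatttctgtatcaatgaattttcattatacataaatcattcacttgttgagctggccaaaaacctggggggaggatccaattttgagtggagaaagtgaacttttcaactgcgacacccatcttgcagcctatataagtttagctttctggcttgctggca
KRT20, chr17:40885243-40885492: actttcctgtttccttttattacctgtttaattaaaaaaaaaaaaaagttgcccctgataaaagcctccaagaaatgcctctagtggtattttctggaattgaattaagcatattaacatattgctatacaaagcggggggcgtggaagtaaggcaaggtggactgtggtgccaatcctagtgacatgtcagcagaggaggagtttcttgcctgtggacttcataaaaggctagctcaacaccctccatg
KRT39, chr17:40966949-40967198: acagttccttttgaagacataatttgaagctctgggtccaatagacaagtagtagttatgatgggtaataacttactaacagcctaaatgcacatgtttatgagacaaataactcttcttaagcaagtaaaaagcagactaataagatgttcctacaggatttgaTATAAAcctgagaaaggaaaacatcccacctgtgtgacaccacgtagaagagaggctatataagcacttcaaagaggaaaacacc
TATAAA began 31 bases before the start in KRT34 and 85 bases before it in KRT39, and no exact match was found in these windows of KRT12 or KRT20. Other forms of a TATA motif were not searched. The windows of KRT12 and KRT39 hold the letters tatataag close to their end, which are not marked. The capitals therefore do not tell which of these promoters has a TATA box. Searched on both strands, TATAAA occurred in 21 of the 38 keratin promoters in the table and in 10.7% of all 35116 promoters of this length. The AP-1 motif TGANTCA occurred in 0 of the 38 keratin promoters and in 6.57% of all promoters, and the TEAD motif GGAATG in 5 of the 38 and in 11.9% of all. Of the 5 expressed keratins among the 38, 3 held TATAAA, 0 the AP-1 motif and 0 the TEAD motif. The 3 were KRT34, KRT39 and KRT10, where TATAAA began 29 bases before the start. KRT10 lies next to KRT12 and had lower values with the inhibitor. A match, or its absence in this window, is a description of the letters only, and none of the 3 motifs contains another.

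KRT15, a keratin of basal cells and of hair follicle stem cells, fell at a low level. KRT15 (ENSG00000171346, chromosome 17, 41513743 to 41522529) stood at 0.432, 0.211 and 0.373 FPKM with the inhibitor and at 1.42, 1.09 and 1.15 FPKM in DMSO, on 113 reads in all with the inhibitor and 390 in DMSO. The log2 fold change was −0.73 (SE 0.14, limma adjusted p = 0.0212) and −1.86 with limma-voom on the reads; with a pseudocount of 0.1 it was −1.62. All 3 inhibitor libraries were below every DMSO library. Of the 6 fits without 1 library, that without inhibitor replicate 2 kept the call (limma adjusted p = 0.0159), and the other 5 gave limma adjusted p from 0.0525 to 0.0976.

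KRT10, a type I keratin known for pairing with KRT1 in the upper epidermis, was far lower in inhibitor replicate 2 than in the other inhibitor libraries. KRT10 (ENSG00000186395, chromosome 17, 40818117 to 40822595) stood at 32.3, 4.36 and 28.0 FPKM with the inhibitor and at 40.3, 40.1 and 42.8 FPKM in DMSO. Replicate 2 had 0.144 times the mean of the other 2 inhibitor libraries, a ratio as low or lower in 1.75% of the genes tested. It was not called (log2 fold change −1.28, SE 0.67, limma adjusted p = 0.226), and without inhibitor replicate 2 it was called at −0.44 (SE 0.08, limma adjusted p = 0.00847). KRT80, a type II keratin found broadly in epithelia, stood at 30.8, 32.8 and 33.5 FPKM with the inhibitor and at 34.6, 34.2 and 40.3 FPKM in DMSO and was not called (−0.16, 95% interval −0.44 to 0.12, limma adjusted p = 0.363); its value was 0.02 with quantile normalization.

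The type II hair keratins KRT81 and KRT86, of the hair cortex, had low values. KRT81 stood at 2.62, 0.775 and 2.99 FPKM with the inhibitor and 3.15, 3.65 and 4.03 FPKM in DMSO. KRT86 stood at 2.62, 1.59 and 2.89 FPKM with the inhibitor and 2.96, 3.42 and 4.15 FPKM in DMSO. Neither was called, with log2 fold changes of −0.64 for KRT81 (SE 0.31, limma adjusted p = 0.199) and −0.43 for KRT86 (SE 0.19, limma adjusted p = 0.165). Their principal transcripts share 94.9% of 1399 aligned bases, so how reads were divided between them depends on the counting. Without inhibitor replicate 2 the log2 fold changes were −0.27 for KRT81 and −0.26 for KRT86, not called. KRT83, next to them and sharing 94.0% of 1425 aligned bases with KRT81, had 17, 0 and 9 reads with the inhibitor and 1, 2 and 2 reads in DMSO. On the listed lengths, all hair keratins together gave 0.854%, 0.513% and 0.849% of keratin FPKM with the inhibitor and 2.18%, 2.35% and 2.36% in DMSO. KRT34 held most of the hair keratin FPKM in DMSO.

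**Figure D5:**
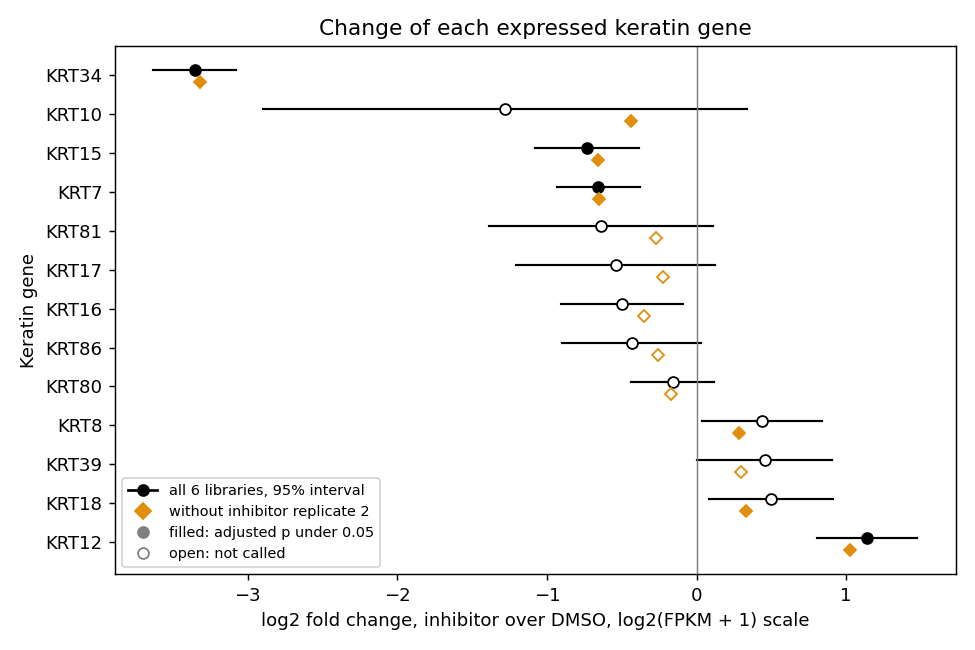
log2 fold change of each expressed keratin gene, inhibitor over DMSO, on the log2(FPKM + 1) scale, with the 95% interval from all 6 libraries (black) and the value without inhibitor replicate 2 (orange); filled symbols passed an adjusted p under 0.05. KRT34 at −3.36 and KRT12 at 1.14 stand at the ends, and the intervals of KRT10, KRT81 and KRT17 are the widest. The intervals are not adjusted for the number of genes tested. Those of KRT16, KRT8, KRT39 and KRT18 therefore exclude no change although their black symbols are open.

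Rows of the table that carry keratin names but are no members were counted for the reads they could take. Of 147 keratin pseudogenes, 60 had any read and 7 passed the limit, and limma called 0, with 2 of the 7 at an unadjusted p under 0.05 and 0 called by limma-voom. The most abundant were KRT8P3, at 2.14 ± 0.203 FPKM with the inhibitor and 2.17 ± 0.0369 FPKM in DMSO, and KRT8P12, at 1.94 ± 0.587 FPKM with the inhibitor and 1.62 ± 0.264 FPKM in DMSO (SD, n = 3 each). The 50 pseudogenes named after KRT8 held 0.677% as many reads as KRT8 itself and the 67 named after KRT18 held 0.546% as many as KRT18. For KRT17 the share was 0.0226%, and for KRT16 it was 5.08%, on 53 reads. Those named after KRT19 held 3 reads, where KRT19 itself had 0. Of 94 genes of keratin-associated proteins, the matrix proteins of hair, 13 had reads, 151 in all, and 0 passed the limit, so none was tested with the filter; without a filter limma called 1, KRTAP21-2 (log2 fold change −1.11, limma adjusted p = 0.0141). The most abundant were KRTAP5-1, at 2.40, 0.714 and 1.24 FPKM with the inhibitor and 0.543, 0.435 and 0.358 FPKM in DMSO, and KRTAP21-2, at 0 FPKM in the 3 inhibitor libraries and 0.872, 1.40 and 1.23 FPKM in DMSO, on 23 reads.

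Proteins that tie keratin filaments to desmosomes and other structures went both ways. Of 13 measured linkers, 3 rose and 1 fell, where 7.18% of all genes tested were called higher and 10.0% lower. PKP3, a desmosomal plaque protein, stood at 33.8 ± 2.56 FPKM with the inhibitor and 15.3 ± 2.55 FPKM in DMSO (log2 fold change 1.10, limma adjusted p = 0.00693), and the plakin PPL at 35.5 ± 8.45 FPKM with the inhibitor and 15.4 ± 1.33 FPKM in DMSO (1.13, limma adjusted p = 0.0116). The plakin EPPK1 stood at 8.09, 21.4 and 8.96 FPKM with the inhibitor and 3.54, 3.95 and 4.77 FPKM in DMSO (1.32, limma adjusted p = 0.0462), and JUP, the plaque protein plakoglobin, fell to 139.9 ± 7.52 FPKM with the inhibitor, against 203 ± 14.6 FPKM in DMSO (−0.54, limma adjusted p = 0.0302; SD, n = 3 each). With libraries left out singly, 1 of 6 fits kept the call of EPPK1 and 1 that of JUP, both without inhibitor replicate 2, 3 that of PPL and 6 that of PKP3. The median of the linkers was 0.28, the value of PLEC. Without inhibitor replicate 2 PLEC again held the middle place, at −0.01. In that fit 4 linkers were called higher and 3 lower, where 40.6% of all genes were called. Of 10 other measured intermediate filament genes, 2 rose and 0 fell, a share near the 17.2% of all genes that were called in either direction. SYNC, a muscle filament protein, stood at 4.25 ± 0.261 FPKM with the inhibitor and 1.39 ± 0.287 FPKM in DMSO (1.14, limma adjusted p = 0.00499), and NES, the neural progenitor filament nestin, at 2.17 ± 0.264 FPKM with the inhibitor and 1.17 ± 0.0785 FPKM in DMSO (0.54, limma adjusted p = 0.0306; SD, n = 3 each). Of those 6 fits, 1 kept the call of NES and 6 that of SYNC. The median was 0.16.

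Of 25 genes of the cornified envelope found in the table, 2 passed the limit. PI3, the protease inhibitor elafin, fell to 0.211, 0 and 0.425 FPKM with the inhibitor, against 2.66, 3.31 and 4.21 FPKM in DMSO (log2 fold change −1.86, limma adjusted p = 0.00393). PI3 reached the limit through the DMSO libraries alone, so it could pass only by being high in that group. CNFN, cornifelin, stood at 6.78, 1.73 and 6.61 FPKM with the inhibitor and 4.67, 3.62 and 3.47 FPKM in DMSO. It was not called with all libraries (0.16) and was called higher without inhibitor replicate 2 (0.65, limma adjusted p = 0.00847). The median of both was −0.85, between values of opposite sign. IVL, the envelope protein involucrin, had 0 reads.

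Among 22 measured transcription factors known to act on keratin genes or keratin-producing cells, 4 fell and 2 rose, where 17.2% of all genes tested were called, and the median log2 fold change was −0.04. The AP-1 subunits JUN and FOSL1 fell, JUN to 5.87 ± 0.846 FPKM with the inhibitor, against 30.0 ± 1.62 FPKM in DMSO, and FOSL1 to 9.62 ± 1.87 FPKM with the inhibitor, against 41.7 ± 3.72 FPKM in DMSO (SD, n = 3 each). Their log2 fold changes were −2.18 for JUN (limma adjusted p = 0.000840) and −2.02 for FOSL1 (limma adjusted p = 0.00194). The other AP-1 subunits listed were not called with all libraries. FOS (−0.46), JUNB (−0.93) and FOSL2 (−0.36) had lower values and JUND (0.39) higher ones. Without inhibitor replicate 2 each of these was called, in the same direction. FOXN1, a factor of hair and nail keratinization, rose to 6.79 ± 1.08 FPKM with the inhibitor, against 1.01 ± 0.311 FPKM in DMSO (1.96, limma adjusted p = 0.00256), and DLX3, a homeodomain factor of the hair matrix, to 3.67 ± 0.594 FPKM with the inhibitor, against 0.801 ± 0.328 FPKM in DMSO (1.38, limma adjusted p = 0.00624; SD, n = 3 each). The calls of JUN, FOSL1, FOXN1 and DLX3 were kept in each fit that left out 1 library. CEBPB (−1.28) and KLF5 (−0.77), factors of epithelial differentiation and growth, complete the count; their calls were kept in 3 and 1 of those fits. HOXC13, a regulator of hair keratins, stood at 22.4, 18.9 and 22.0 FPKM with the inhibitor and 24.0, 22.5 and 22.6 FPKM in DMSO and was not called (−0.12, SE 0.11, limma adjusted p = 0.468). TP63, the factor of basal cells, stayed at or below 0.172 FPKM. Without inhibitor replicate 2, 8 of these factors were called lower and 4 higher, where 40.6% of all genes were called.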

How the data were processed

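The authors deposited 1 table of FPKM values, 1 column per library, with a listed length in bases for each gene. Per the labels' protocols, total RNA went into a strand-marking (directional) library kit; the build named, per the submitters' processing notes, is hg38. No source used here names the aligner, the counter or whether counting used strand. Multiplied by listed length, 100% of values were multiples of 1 step per library within 0.01 reads, and whole reads were recovered from them. All 55 keratin lengths equal the union of exons in GENCODE 29.

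Genes reaching 1 FPKM in 3 or more of the 6 libraries were tested on log2(FPKM + 1) with limma 3.58.1 in R 4.3.3 (mean-variance trend, no block, two-sided), with Benjamini-Hochberg adjustment over 13578 genes and a threshold of 0.05. The test was tried on simulated reads first. The members and lists were chosen with earlier results of these data known; the keratin class of each gene is its usual one. Named were all expressed keratins, those nearest below the limit, and, of every other list, the 4 lowest adjusted p values among called genes or, with none called, the 2 most abundant; other genes are named as markers or chosen after their values were seen. Principal transcripts were those of lowest APPRIS rank. Transcripts were aligned locally with Biopython 1.88, and promoters are from RefSeq, GRCh38.p14, in which 5 of the 13 expressed keratins had an entry. Python 3.11.15 with pandas 2.3.3 and matplotlib 3.10.9 read and drew the data. Alternatives were other pseudocounts, filters, scalings, limma settings, a replicate block, limma-voom on recovered reads and leaving out each library.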

Additional observations from a re-analysis of the deposited data

How the results depend on the processing

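With all 6 libraries, 3 keratins were called lower and 1 higher at pseudocounts of 0.1 and 0.5, with no filter, under TPM, quantile and length-trend scaling, without limma's variance trend, with its robust prior, and with limma-voom. The filter at 5 FPKM left 2 lower and 0 higher, since KRT12 and KRT15 were no longer tested, and an adjusted p under 0.01 left 1 lower and 1 higher. Leaving out 1 library gave 1 to 4 keratins lower and 1 to 3 higher, with the highest counts without inhibitor replicate 2. Over all genes, 2339 calls became 1533 with no filter, 1505 with the filter at 5 FPKM, 543 at an adjusted p under 0.01, and 478 (without DMSO replicate 1) to 5513 (without inhibitor replicate 2) with 1 library left out. KRT80 alone changed sign, to 0.018 with quantile normalization; the cause was not tested. Quantile normalization moved the median over all genes by under 0.1 on the log2 scale.

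Calls among other lists also varied with the setting. Over all settings, 4 linkers became 1 to 7, 2 other intermediate filament genes 0 to 5, and 1 cornified envelope gene 0 to 2. The 6 regulators became 4 to 12, with the highest count without inhibitor replicate 2. With quantile normalization or without limma's variance trend, 1 keratin pseudogene was called. The replicate block gave 1478 calls over all genes, 3 keratins lower and 1 higher. The labels state no pairing, so the numbers were not taken to pair the libraries. Deviations of same-numbered libraries correlated at −0.0179, 0.157 and 0.248 for replicates 1, 2 and 3. Inhibitor replicates 2 and 3 correlated best with the DMSO library of the same number, and inhibitor replicate 1 with DMSO replicate 3. KRT12 rests on 547 reads in all, KRT15 on 503, and genes below the limit on at most 132, which limits what changes could be detected in them.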
